A study of Mus musculus with 2 samples.

Results

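The genes described here are 9 mouse genes of mitochondrial fatty acid oxidation, ketone body metabolism and their control: Cpt1a, Cpt2, Acadvl, Acadm, Hadha, Hadhb, Bdh1, Pdk4 and Ppara. They were taken by name and not by a limit on their measured values, and all 9 were found among the 55401 genes of the deposited matrix. The choice was made with earlier results of these data known. The cells were epithelial cells sorted from the small intestine of a TrnA-mutant mouse, aged 55 weeks, with a mutation load of 73% per the labels (TrnA is a transfer RNA gene of the mitochondrial genome). RNA and open chromatin were read from the same cells with the 10x Multiome assay, which gives 1 RNA library and 1 ATAC library. The labels name no treatment for this sample, and the comparisons are between kinds of cells within 1 sample. The labels give 1 mutation load for the whole sample. The load in single cells or in each class is not given and may differ between them. There is no biological replicate and no p-value, and every interval below is a 95% interval that covers counting error only.

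Long-chain fatty acids enter mitochondria as carnitine esters. CPT1A makes the ester at the outer membrane and CPT2 returns the fatty acid to coenzyme A inside. The chain is then shortened step by step by acyl-CoA dehydrogenases (ACADVL for very long chains, ACADM for medium chains) and, for long chains, by the trifunctional protein, whose alpha and beta subunits are encoded by Hadha and Hadhb. BDH1 interconverts acetoacetate and beta-hydroxybutyrate, the main ketone bodies. PDK4 phosphorylates and inhibits pyruvate dehydrogenase, and PPARA is a fatty-acid-sensing nuclear receptor that regulates many genes of this pathway. In the small intestine, crypt stem cells renew the epithelium, and absorptive enterocytes take up dietary lipid as they move from the base to the tip of the villus.

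The promoters of 5 of the genes are shown first, for the reasons given next. A link between these sequences and the RNA levels was not tested. Cpt1a and Bdh1 had more RNA in stem-like cells. Hadha and Hadhb share 1 open promoter between them. Pdk4 had the widest range of RNA between classes of cells, and Acadvl had its highest RNA level at the villus base and carries one of the motif matches. Each sequence is the RefSeq window of 300 bases (250 before the start site and 50 after it) in build GRCm38.p6, written 5′ to 3′ on the gene's own strand. Capitals mark matches to AGGTCA on either strand (TGACCT is its reverse), the half-site bound by PPAR and related nuclear receptors. Cpt1a lies on the plus strand at chr19:3323051-3323350, Acadvl on the minus strand at chr11:70015379-70015678, Hadhb on the plus strand at chr5:30155003-30155302, Bdh1 (its first start) on the plus strand at chr16:31422047-31422346 and Pdk4 on the minus strand at chr6:5496229-5496528.
Cpt1a: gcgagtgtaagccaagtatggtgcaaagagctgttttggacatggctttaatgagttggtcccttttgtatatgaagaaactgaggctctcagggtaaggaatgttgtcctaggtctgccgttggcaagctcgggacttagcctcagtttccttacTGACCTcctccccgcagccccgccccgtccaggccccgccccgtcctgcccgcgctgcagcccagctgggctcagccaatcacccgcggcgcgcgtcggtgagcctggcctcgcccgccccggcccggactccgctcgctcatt
Acadvl: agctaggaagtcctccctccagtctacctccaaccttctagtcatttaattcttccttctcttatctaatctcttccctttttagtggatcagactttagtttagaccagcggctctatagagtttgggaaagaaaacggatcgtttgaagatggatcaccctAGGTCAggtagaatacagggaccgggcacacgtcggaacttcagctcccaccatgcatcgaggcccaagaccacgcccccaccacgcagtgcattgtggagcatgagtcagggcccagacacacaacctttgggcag
Hadhb: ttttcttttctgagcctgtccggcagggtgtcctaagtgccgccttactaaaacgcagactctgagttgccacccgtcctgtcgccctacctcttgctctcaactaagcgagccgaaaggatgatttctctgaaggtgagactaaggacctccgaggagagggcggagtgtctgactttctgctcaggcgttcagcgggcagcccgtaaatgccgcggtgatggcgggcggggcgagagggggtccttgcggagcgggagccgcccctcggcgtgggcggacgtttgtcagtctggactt
Bdh1, first start: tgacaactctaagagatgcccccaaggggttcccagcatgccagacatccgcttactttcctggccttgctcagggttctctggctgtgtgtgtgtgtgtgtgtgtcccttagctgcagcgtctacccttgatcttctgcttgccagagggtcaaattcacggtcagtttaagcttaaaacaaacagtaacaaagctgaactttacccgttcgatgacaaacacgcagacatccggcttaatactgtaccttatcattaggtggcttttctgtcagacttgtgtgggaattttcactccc
Pdk4: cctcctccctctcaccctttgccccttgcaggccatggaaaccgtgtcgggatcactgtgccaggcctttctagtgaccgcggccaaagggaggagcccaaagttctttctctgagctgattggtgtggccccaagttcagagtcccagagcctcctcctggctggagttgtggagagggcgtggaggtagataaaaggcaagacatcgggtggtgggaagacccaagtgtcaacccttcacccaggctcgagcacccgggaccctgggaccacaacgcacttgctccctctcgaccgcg

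RefSeq promoters were found for all 9 genes, with 2 for Bdh1, and each of these windows lay wholly inside a deposited ATAC peak. AGGTCA was found in 3 of the 9 genes' promoters, those of Cpt1a (94 bases before the start), Acadvl (87 bases before) and Acadm (249 bases before, chr3:153944594-153944893). The same letters occurred in 16.3% of all 32851 mouse promoter windows of this length. A direct repeat of AGGTCA with 1 base between the copies and up to 2 mismatches, the form that PPAR binds, was found in none of the 9 genes' windows and in 3.86% of all windows. The cyclic AMP response element TGACGTCA (1.79% of all windows) and the TCF element CTTTGAA (5.14%) were also in none of them. These are descriptions of letters on both strands of a short window, and no match says only that the letters are not in that window. The Hadha window (chr5:30154931-30155230, minus strand) overlaps the Hadhb window by 228 bases, and the RefSeq starts of these genes lie 273 bases apart and point away from each other.

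Of 12363 barcodes, 9872 passed the filters on depth, with a median of 5591 UMIs, 1547 nuclear-encoded UMIs and 6765.5 ATAC fragments in peaks. Clustering, from which the 9 genes and the other pathway genes were left out, gave 905 stem-like cells and 3838 enterocyte-like cells. The enterocyte-like cells were ordered by landmark genes of the villus and divided by rank into 3 groups of equal size, called villus base (1279 cells), middle (1279) and tip (1280). These heights are ranges of a score and not cell types, and 1222 of the 3838 cells lay within 0.1 SD of a dividing line. The classes were checked against their markers. The stem cell gene Lgr5 stood at 650 counts per 1000000 nuclear-encoded UMIs (CPM) in stem-like cells and at 9.27 to 15.6 CPM in the heights. Olfm4, another stem cell gene, differed less, its stem-like level being 300% to 537% of those in the heights. The summed level of 14 stem cell markers was 10231 CPM in stem-like cells and 977 to 1494 in the heights. The summed level of 22 enterocyte markers was 2286 CPM in stem-like cells and 27995 to 35577 in the heights. The summed level of 8 landmark genes of the villus middle was 5058 CPM at the base, 4583 in the middle and 3575 at the tip. The group called middle was thus not the highest for these genes, and its name gives only a rank of the score. The heights also differ in gut segment. Of 365 cells in a distal cluster led by ileal genes, 239 fell in the base, 60 in the middle and 66 in the tip. The summed level of 5 distal genes was 2381 CPM at the base, 1012 in the middle and 819 at the tip. The summed level of 13 cell division markers was 1942 CPM in stem-like cells, 3480 in cycling-like cells and 202 to 348 in the heights. Stem-like cells and the heights thus differ in cell division too, and its part in the ratios below was not tested. Cells above 80% mitochondrial UMIs numbered 647 at the base, 803 in the middle and 525 at the tip. Sis, the brush border disaccharidase sucrase-isomaltase, stood in stem-like cells at 1.76% of its villus base level, and Apoa1 at 7.14%. The Paneth cell gene Lyz1 stood at 156 CPM in stem-like cells and 252 to 434 in the heights, against 38461 in Paneth-like cells. The part of such free RNA in the levels below was not tested beyond these values.

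Levels are given on this nuclear scale because the share of UMIs from mitochondrial DNA was 54.7% in stem-like cells, 76.4% at the villus base, 84.5% in the middle and 78.2% at the tip. Dividing by UMIs of all kinds (the all-UMI scale) instead raises every ratio of stem-like over enterocyte-like cells, by 0.94 on the log2 scale against the base, 1.54 against the middle and 1.06 against the tip. The median gene itself was higher in stem-like cells by 0.38, 0.38 and 0.56 (log2, nuclear scale) against the base, middle and tip. Median nuclear-encoded UMIs per cell were 2472 in stem-like cells and 654 to 899.5 in the heights. A level is a share of the RNA read in a class, so more RNA of a gene and less RNA of the other genes cannot be told apart.

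The 9 genes did not move as a block between stem-like cells and enterocytes. A gene was called different at a ratio of at least 1.5-fold whose interval excluded 1, given at least 20 UMIs over both classes. Against the villus base, 2 of 9 genes were called higher in stem-like cells (39.8% of all genes tested were) and 5 of 9 lower (20.9% of all genes). Against the middle, 2 were higher (38.1% of all genes) and 3 lower (20.4%). Against the tip, 3 were higher (45.4% of all genes) and 1 lower (20.2%). Cpt1a and Bdh1 were the genes called higher against all 3 heights, and Pdk4 was the gene called lower against all 3. On the all-UMI scale the counts changed to 4 higher and 1 lower against the base (69.6% and 8.86% of all genes on that scale), 8 and 1 against the middle (82.1% and 5.69%), and 7 and 0 against the tip (73.8% and 9.24%). The median gene on that scale was itself higher in stem-like cells, by 1.32, 1.93 and 1.62 (log2). With median-of-ratios size factors the counts were 2 and 5 against the base (31.1% and 27.4% of all genes), 1 and 3 against the middle (30.8% and 25.7%), and 2 and 3 against the tip (32.7% and 29.3%). Each comparison was repeated under 15 other settings, of which 13 changed the ratios over the tip and 12 those over the base and middle. The other settings changed only the limits for a call or cells outside the comparison.

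**Figure D1:**
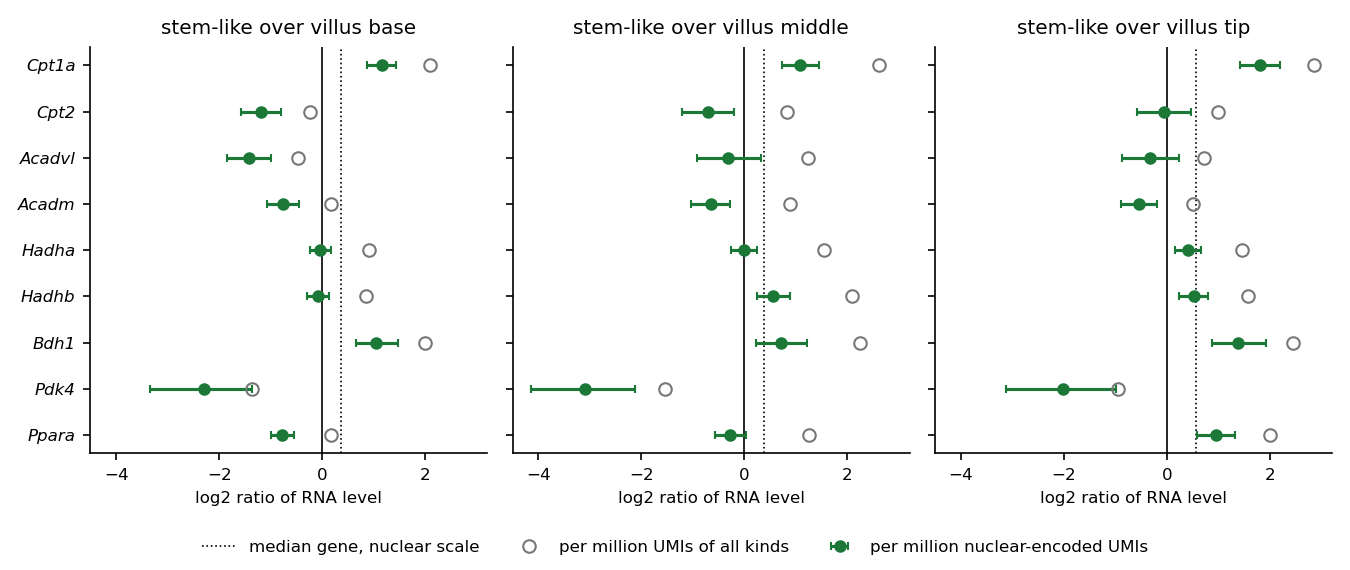
Log2 ratio of RNA level in stem-like cells over the villus base, middle and tip (x axis) for each of the 9 genes (y axis). Filled points are on the nuclear scale with 95% counting intervals, open points are on the all-UMI scale and the dotted line is the median gene on the nuclear scale. Cpt1a and Bdh1 lie to the right of 0 and Pdk4 to the left in every panel on both scales. Acadm crosses 0 between the scales in every panel, and the remaining genes cross it in some panels only or, for Hadhb, over the base only. Over the tip, Hadha, Hadhb and Ppara lie to the right of 0 on both scales.

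Against the villus base, Cpt1a and Cpt2 of the carnitine shuttle went in opposite directions. Cpt1a RNA was 148 CPM (interval 133 to 163; 400 UMIs) in stem-like cells, 66.3 at the villus base (143 UMIs), 69.8 in the middle (76 UMIs) and 42.4 (32.6 to 54.1; 64 UMIs) at the tip. The stem-like level lay above the intervals of all 3 heights. Cpt1a was thus 2.23-fold higher in stem-like cells than at the base (log2 1.15, interval 0.88 to 1.44), 2.11-fold higher than in the middle and 3.48-fold higher than at the tip (log2 1.80, interval 1.42 to 2.20). It was called higher against each height under all 15 other settings, with log2 ratios over the tip of 1.33 to 2.86. Among all genes tested, its ratio over the tip stood at percentile 76.6.

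Cpt2 RNA was 32.5 CPM (88 UMIs) in stem-like cells, 73.7 (159 UMIs) at the base, 53.3 (58 UMIs) in the middle and 33.8 (51 UMIs) at the tip. The base lay highest, its interval overlapped that of the middle, and the tip overlapped the stem-like cells. Stem-like cells had 2.27-fold less than the base (log2 -1.18, interval -1.58 to -0.80) and a log2 ratio of -0.06 over the tip, with an interval of -0.57 to 0.47. The difference from the base was called under 14 of the 15 other settings and not on the all-UMI scale, where it was -0.24. Against the middle the ratio of -0.72 turned to 0.83 on that scale.

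Of the acyl-CoA dehydrogenases, Acadvl peaked at the base of the villus. It stood at 25.8 CPM (70 UMIs) in stem-like cells, 68.6 (148 UMIs) at the base, 32.2 (35 UMIs) in the middle and 32.5 (49 UMIs) at the tip. The base interval, 58.0 to 80.6, lay above those of the other 3 classes. Stem-like cells had 2.66-fold less Acadvl than the base (log2 -1.41, interval -1.84 to -0.99) and were called lower under 13 of the 15 other settings. The exceptions were the all-UMI scale (-0.47) and cells thinned to 500 nuclear-encoded UMIs. Against the middle (-0.32) and the tip (-0.33) it was not called, and both turned positive (1.23 and 0.73) on the all-UMI scale.

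Acadm was flatter along the villus. Its level was 56.5 CPM (153 UMIs) in stem-like cells, 96.0 (207 UMIs) at the base, 89.2 (97 UMIs) in the middle and 82.1 (124 UMIs) at the tip. The 3 heights overlapped in their intervals and all lay above the stem-like level of 47.9 to 66.1. The log2 ratios of stem-like cells were -0.77 over the base and -0.66 over the middle, both called, and -0.54 over the tip, not called. All 3 turned positive (0.18, 0.88 and 0.52) on the all-UMI scale. The difference from the base was not called under 2 of the 15 other settings, and that from the middle under 5.

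The subunits of the trifunctional protein differed little between stem-like cells and the villus base. Hadha stood at 168 CPM (456 UMIs) in stem-like cells, 172 (371 UMIs) at the base, 169 (184 UMIs) in the middle and 127 (191 UMIs) at the tip. Hadhb stood at 141 (383 UMIs), 150 (323 UMIs), 96.5 (105 UMIs) and 98.7 (149 UMIs) in the same order. Neither was called between stem-like cells and any villus height in the main setting. Of the 15 other settings, Hadhb was called higher in stem-like cells under 8 against the tip, 4 against the middle and 0 against the base. Its ratios over the tip and middle were positive under every setting. Hadha was called under 1 against the tip and 0 against the base or middle. The log2 ratios over the base were -0.03 for Hadha (interval -0.23 to 0.17) and -0.08 for Hadhb (-0.30 to 0.13), and over the tip 0.41 and 0.52. On the all-UMI scale, Hadha and Hadhb were both higher in stem-like cells, with 0.91 and 0.86 over the base and 1.47 and 1.57 over the tip. In the middle the Hadhb interval, 78.9 to 117, lay below that of the base, and the Hadha interval overlapped it.

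Bdh1, of ketone body metabolism, had its highest level among the 9 named epithelial classes in stem-like cells. It was 67.5 CPM (interval 58.1 to 78.0; 183 UMIs) there, 32.5 (70 UMIs) at the base, 41.4 (45 UMIs) in the middle and 25.8 (39 UMIs) at the tip. The stem-like interval lay above those of all 3 heights, and the heights overlapped with each other. The excess in stem-like cells was 2.08-fold over the base (log2 1.06, interval 0.65 to 1.48), 1.63-fold over the middle and 2.61-fold over the tip (log2 1.39, interval 0.88 to 1.92). Among all genes tested, these ratios stood at percentiles 69.8, 59.1 and 69.1. Against the base and the tip the excess was called under all 15 other settings. Against the middle it was not called under 4 of them, which were median-of-ratios factors (log2 0.40), clusters from ATAC peaks, cycling-like cells added to the stem-like ones, and a limit of 2-fold.

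Bdh1 also differed between clusters of enterocytes, from 19.5 to 66.6 CPM. The highest of them, a cluster of 1159 cells led by H2-Bl, Gm8909 and Chd3, had 66.6 CPM (interval 47.1 to 91.4; 38 UMIs), which overlapped the stem-like interval. Its cells fell in the villus base (421), middle (491) and tip (247), with a median of 450 nuclear-encoded UMIs and 89.3% mitochondrial UMIs. An unnamed cluster of 499 cells had 95.8 CPM (60.7 to 144; 23 UMIs). The higher level in stem-like cells therefore holds against the heights and not against every cluster.

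Bdh1 was part of a list of ketone body enzymes and transporters only by its function, and the other 10 genes of that list were tested against all enterocyte-like cells together. Of the 8 with enough UMIs, 2 were called higher in stem-like cells and 0 lower (41.6% and 22.2% of all genes tested), with a list median of 0.30 against 0.40 for all genes. Slc16a7, a monocarboxylate transporter, was among those called higher, with 27 UMIs in stem-like cells and 4 in all enterocyte-like cells. Oxct1, which starts ketone body breakdown, was 96.3 CPM in stem-like cells and 86.7 in enterocyte-like cells, a log2 ratio of 0.15 that was -0.16 with median-of-ratios factors.

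Pdk4 was the gene with the least RNA in stem-like cells and the widest range over classes. There were 12 UMIs in stem-like cells, 4.43 CPM (interval 2.29 to 7.73). The villus base had 21.8 CPM (47 UMIs), the middle 37.7 (41 UMIs) and the tip 17.9 (27 UMIs). All 3 heights lay above the stem-like interval, and the interval of the middle, 27.0 to 51.1, overlapped that of the base, as the base overlapped the tip. The level was 4.92-fold lower in stem-like cells than at the base (log2 -2.30, interval -3.35 to -1.36), 8.51-fold lower than in the middle (log2 -3.09) and 4.04-fold lower than at the tip (log2 -2.01, interval -3.13 to -0.98). Against the middle it was called lower under all 15 other settings, and against the base under 14, cells thinned to 500 nuclear-encoded UMIs being the exception. The difference from the tip was not called under 5, among these the all-UMI scale (log2 -0.96) and the fit without cells above 80% mitochondrial UMIs (-1.23). Stem-like Pdk4 was at 20.3% of the base level, above the 1.76% of Sis and 7.14% of Apoa1 there.

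Pdk4 ranged from 4.70 to 50.8 CPM between clusters of enterocytes, beside 17.9 to 37.7 between heights. The cluster led by Tmprss15, Slc5a12 and Xdh had 50.8 CPM (61 UMIs), and 647 of its 1301 cells fell in the villus middle. The cluster led by Reg1, Fabp1 and Lct, which is mostly villus base, had 28.0 (25 UMIs). The cluster led by the tip genes Clca4a and Nt5e had 7.80 (interval 3.37 to 15.4; 8 UMIs) and the distal cluster, led by the ileal genes Slc10a2, Fgf15 and Fabp6, had 4.70 (1.53 to 11.0; 5 UMIs). The intervals of the latter 2 overlapped that of stem-like cells. With whole clusters in place of heights, an alternative chosen after the data were seen, the log2 ratio of stem-like cells over the tip was -0.82 and was not called. Outside enterocytes, Pdk4 was highest in enteroendocrine-like cells at 60.1 CPM (interval 41.4 to 84.4; 33 UMIs). No UMI was found in the 98 tuft-like cells, which allows up to 13.2 CPM.

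**Figure D2:**
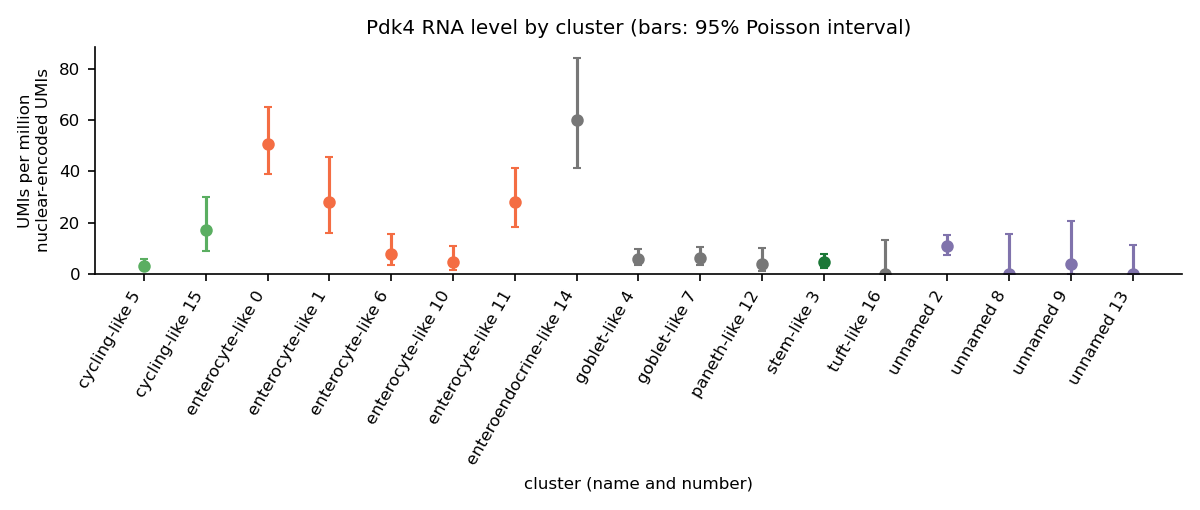
Pdk4 RNA (y axis, counts per 1000000 nuclear-encoded UMIs) in each cluster of cells (x axis, leaving out the smallest cluster of 28 T cell-like cells), with 95% Poisson intervals. Enterocyte-like clusters range from 4.70 to 50.8 CPM, the stem-like cluster is at 4.43 and the enteroendocrine-like cluster is the highest at 60.1.

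Pdk4 belongs to the enzymes that control pyruvate dehydrogenase, and those enzymes went in both directions. Of 13 other genes tested in that list, 4 were called higher in stem-like cells than in all enterocyte-like cells and 2 lower (41.6% and 22.2% of all genes). On the all-UMI scale 11 were higher and 0 lower, where 73.3% and 8.62% of all genes were called higher and lower. Pdk1, another kinase of the complex, was 2.64-fold higher in stem-like cells (152 UMIs against 101). Pdk2, a further kinase, was lower like Pdk4, with a log2 ratio of -1.34 (36 against 160 UMIs) and 13.3 CPM in stem-like cells, 30.6 at the base, 46.9 in the middle and 28.5 at the tip. The phosphatase gene Pdp2 had a log2 ratio of -1.19. Both stayed negative on the all-UMI scale at -0.20 and -0.05. Pdhx, a structural subunit, stood at 1.16.

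Ppara had more RNA at the villus base than in stem-like cells and less at the tip. Its level was 106 CPM (interval 94.0 to 119; 287 UMIs) in stem-like cells, 181 (391 UMIs) at the base, 129 (140 UMIs) in the middle and 55.0 (43.8 to 68.1; 83 UMIs) at the tip. Stem-like cells lay below the base, overlapped the middle and lay above the tip. The log2 ratios were -0.78 over the base (1.71-fold lower), -0.28 over the middle, not called, and 0.95 over the tip (0.59 to 1.32). The excess over the tip was called under 13 of the 15 other settings and not with median-of-ratios factors (0.47) or at a limit of 2-fold. The deficit against the base turned to 0.17, and that against the middle to 1.26, on the all-UMI scale. The deficit against the base was also not called with thinned cells, with cycling-like cells added or at 2-fold.

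Among 20 other regulators tested, 9 were called higher in stem-like cells than in all enterocyte-like cells and 6 lower (41.6% and 22.2% of all genes). On the all-UMI scale 14 were higher and 2 lower (73.3% and 8.62% of all genes). The counts of higher genes were near these shares. Ppargc1a, the coactivator of mitochondrial biogenesis, had 63.8 CPM in stem-like cells and 447 in enterocyte-like cells (log2 -2.81), and Rxra, the partner of PPARA, had 17.7 against 59.9 (log2 -1.76). Both kept this direction on the all-UMI scale (-1.67 and -0.62). Ppard, a related receptor, was at -0.94, which turned to 0.20 on that scale. The orphan receptor gene Esrrg had 1827 CPM in stem-like cells against 50.9 (log2 5.17), and Acacb, which makes the malonyl-CoA that inhibits CPT1, had 22.1 against 2.31 (log2 3.26).

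**Figure D3:**
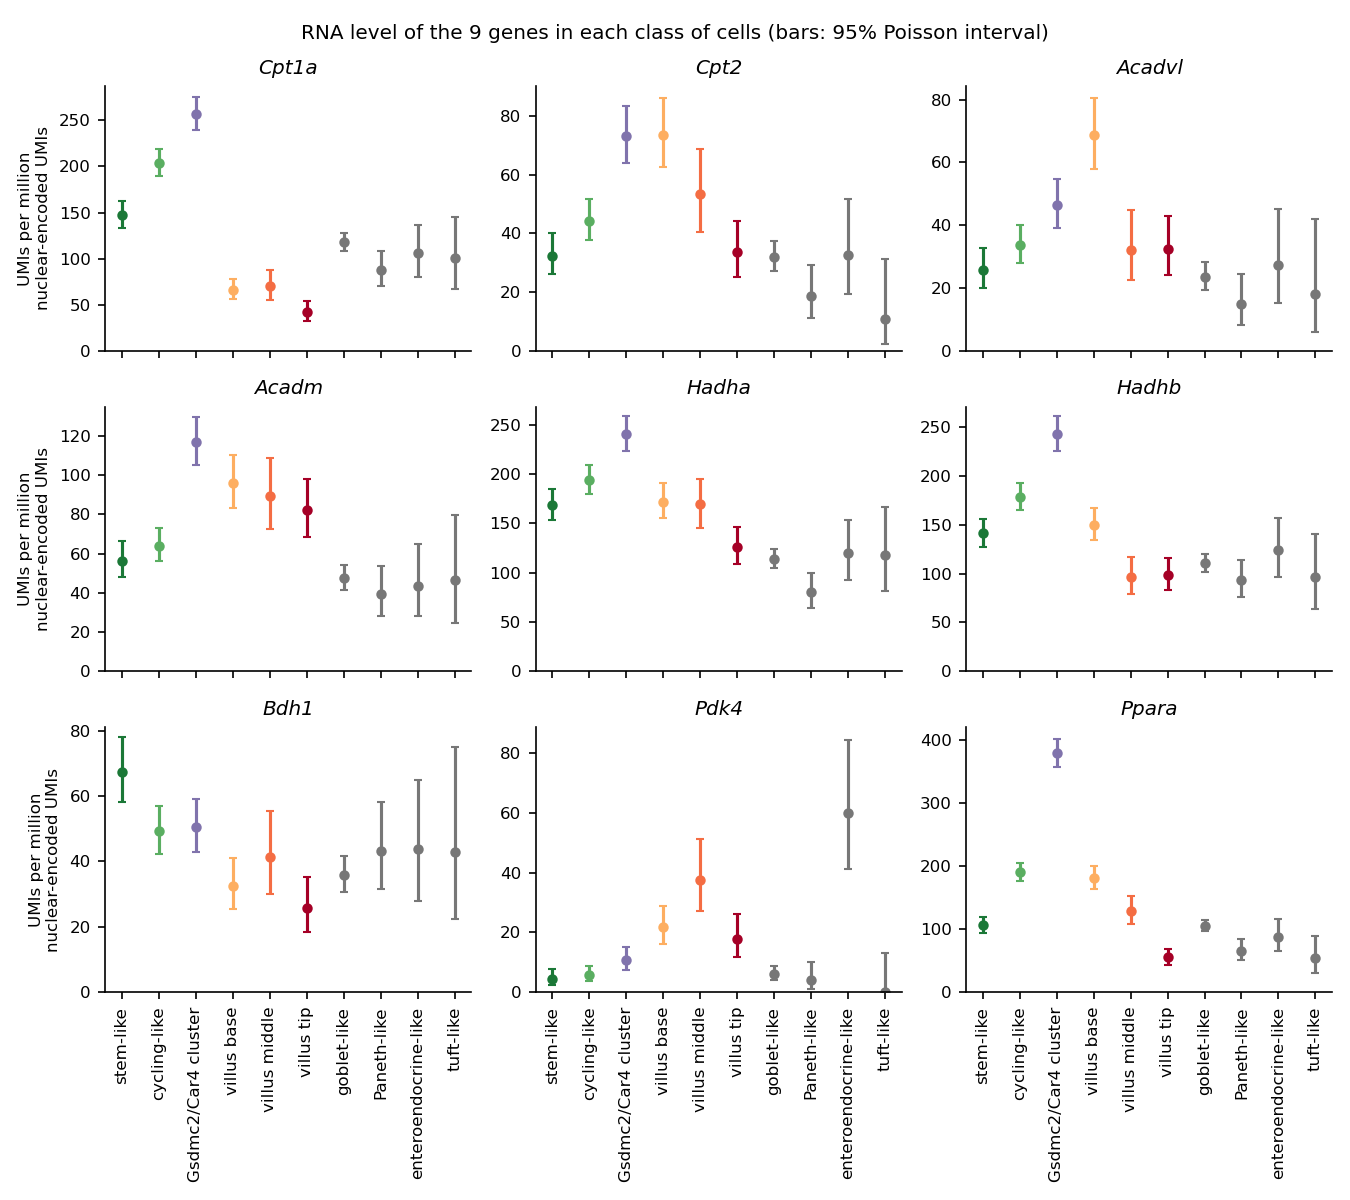
RNA level of each of the 9 genes (y axis, counts per 1000000 nuclear-encoded UMIs, from 0) in 10 classes of cells (x axis), with 95% Poisson intervals. Cpt1a is at 148 in stem-like cells and 42.4 to 69.8 in the 3 villus heights, Ppara descends from 181 at the base to 55.0 at the tip, and the cluster led by Gsdmc2 and Car4 is the highest point for Cpt1a, Acadm, Hadha, Hadhb and Ppara.

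Within the villus, none of the 9 genes was called higher at the tip than at the base (8.7% of all genes were), and 5 were lower (17.9% of all genes). These were Ppara (log2 -1.72), Cpt2 (-1.13), Acadvl (-1.08), Cpt1a (-0.65) and Hadhb (-0.60), against a median gene of -0.18. Those of Ppara, Cpt2 and Acadvl were also called with median-of-ratios size factors, and those of Cpt1a and Hadhb were not. Acadm (-0.22), Hadha (-0.44), Bdh1 (-0.33) and Pdk4 (-0.29) were not called, and Ppara had the lowest percentile of the 9 among all genes, 2.21. The base and tip differ in their share of the distal cluster as well as in height. Without that cluster the same 5 genes were still called lower, and Pdk4 was called lower too. With whole clusters in place of heights, which was not a planned setting, 8 of 9 were lower, all but Acadm. The share of all genes lower between those clusters was not computed. The 17.9% above belongs to the heights, so the count of 8 cannot be called particular to these genes. Of the other mitochondrial oxidation genes, 8 of 20 were also lower at the tip and 0 higher, among them Acaa2 (33 against 151 UMIs, log2 -1.68), the last thiolase of the spiral, and Decr1 (66 against 221 UMIs, -1.23). With median-of-ratios size factors 4 of these 20 were lower and 0 higher, and on the all-UMI scale 9 and 0. No share of all genes is given for those scales. Acsl3, an acyl-CoA synthetase singled out after its values were seen, went the other way, with 338 UMIs at the tip against 41 at the base (log2 3.56).

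Of the 10 classes in the plot of levels, the highest value of 5 of the 9 genes was in a cluster of 937 cells that no marker list named. It was led by Gsdmc2, Gsdmc3 and Car4, had a median of 2675 nuclear-encoded UMIs per cell and 57.2% mitochondrial UMIs, and was singled out after its values were seen. Its Lgr5 level was 4.22 CPM, its Sis level 3197, and its summed enterocyte markers were 8646 CPM, between stem-like cells and the heights. Ppara stood at 379 CPM (1168 UMIs), Cpt1a at 257 (791 UMIs), Hadhb at 243 (748 UMIs), Hadha at 240.4 (741 UMIs) and Acadm at 117 (360 UMIs). The Acadm interval overlapped that of the villus base, and the other 4 lay above every other class plotted. Outside the plot, an unnamed cluster of 272 cells overlapped it in Hadha (231 CPM, interval 182 to 289) and Hadhb (212, 165 to 269). Ppara (222) and Cpt1a (142) were lower there, without overlap. Acadm was higher there (132) and in unnamed clusters of 499 (146) and 400 cells (133). It was also higher in the enterocyte-like cluster led by H2-Bl (130). All of these Acadm intervals overlapped that of the Gsdmc2 cluster.

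Over stem-like cells, 7 of the 9 genes were called higher in the cluster led by Gsdmc2 and Car4 (16.5% of all genes) and 0 lower (23.2%). The largest were Ppara, 3.58-fold (log2 1.84, interval 1.65 to 2.03), Pdk4 (1.27), Cpt2 (1.18) and Acadm (1.05). Hadha (0.52) and Bdh1 (-0.42) were not called. Over the villus base, 4 were higher (27.5% of all genes): Cpt1a at 1.95, Ppara at 1.06, Hadhb at 0.70 and Bdh1 at 0.64. Only Pdk4 was lower (12.3% of all genes), at -1.03, and it stayed negative at -0.16 on the all-UMI scale.

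In the other lineages, goblet-like cells had 118 CPM of Cpt1a and 105 of Ppara, the latter overlapping the stem-like interval. Paneth-like cells were low for most of the 9 genes, with 18.7 CPM of Cpt2, 14.8 of Acadvl and 80.7 of Hadha. Cycling-like cells had more Cpt1a (204) and Ppara (191) than stem-like cells and less Bdh1 (49.2), with intervals that did not overlap for these 3 genes.

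The genes whose log2 levels over 9 named classes were most like those of the 4 widest-ranging members, among 6392 genes with at least 500 UMIs, were found by Pearson's correlation. For Pdk4 they were Rhou (0.94), Entpd5 and Ddr1, for Cpt2 Tbc1d14 (0.97), Hnf4g and Slc18b1, for Cpt1a they included Cep152 (0.98) and Mad1l1, and for Acadvl Gm49890 (0.98), Cox6a1 and Bend7. The 9 points share the same library and the same scale, and with so few points and so many genes these are descriptions.

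Few promoters of the 9 genes were called different. Accessibility was read as ATAC fragments in the peaks within 1000 bases of a gene's start, per 1000000 fragments in peaks (FPM). Against the villus base none of the 9 genes' promoters was called higher in stem-like cells (27.3% of all promoters were) or lower (7.8%). Against the middle the shared promoter of Hadha and Hadhb was higher (36.0% of all promoters) and none was lower (7.86%). Against the tip the Hadha and Hadhb promoter and that of Bdh1 were higher (37.3% of all promoters) and none was lower (8.34%). Between tip and base none was higher (2.67%) or lower (9.21%). Fragments per cell in place of FPM gave all 9 higher in stem-like cells than at the tip, where 87.8% of all promoters were higher and 3.25% lower. Median-of-ratios factors gave 0 higher and 3 lower (Acadvl, Acadm and Pdk4), against 24.9% and 16.0% of all promoters.

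The promoter peak shared by Hadha and Hadhb is at chr5:30154760-30155654 (mm10) and holds both divergent starts. Only the Hadhb window is printed above. It stood at 47.1 FPM (553 fragments) in stem-like cells, 34.3 (343) at the base, 25.5 (189) in the middle and 27.2 (222) at the tip. Stem-like cells were the highest and the middle and tip overlapped. The log2 ratio over the tip was 0.79 (interval 0.56 to 1.02), beside 0.41 and 0.52 in the RNA of the 2 genes, and the median promoter was at 0.37.

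Bdh1 has several annotated starts, with 5 promoter peaks that together had 881 fragments (75.1 FPM) in stem-like cells, 502 (50.1) at the base, 379 (51.1) in the middle and 383 (47.0) at the tip. The stem-like value lay above the other 3, which overlapped. The peak at the first start, chr16:31421715-31422590, contains the sequence printed above and differed the most, with 90 fragments against 15 at the tip (4.17-fold, log2 2.06, interval 1.26 to 2.96). The peak with the most fragments, chr16:31429415-31430335, where Bdh1 overlaps Gm15743, had 474 against 229 and a log2 ratio of 0.52, not called.

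The other promoters were not called at any height. For Cpt1a, 41.2 FPM in stem-like cells stood beside 46.8 at the base, 41.4 in the middle and 38.5 at the tip, so the promoter's log2 ratio over the tip was 0.10 (interval -0.11 to 0.31) where that of the RNA was 1.80. For Pdk4 the promoter stood at 23.5, 29.2, 34.4 and 29.3 in the same order. The ratio of stem-like cells over the middle was -0.55 (interval -0.80 to -0.30), under the 1.5-fold limit. The Ppara promoter was at 56.7 in stem-like cells, 62.3 at the base, 66.4 in the middle and 49.8 at the tip.

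**Figure D4:**
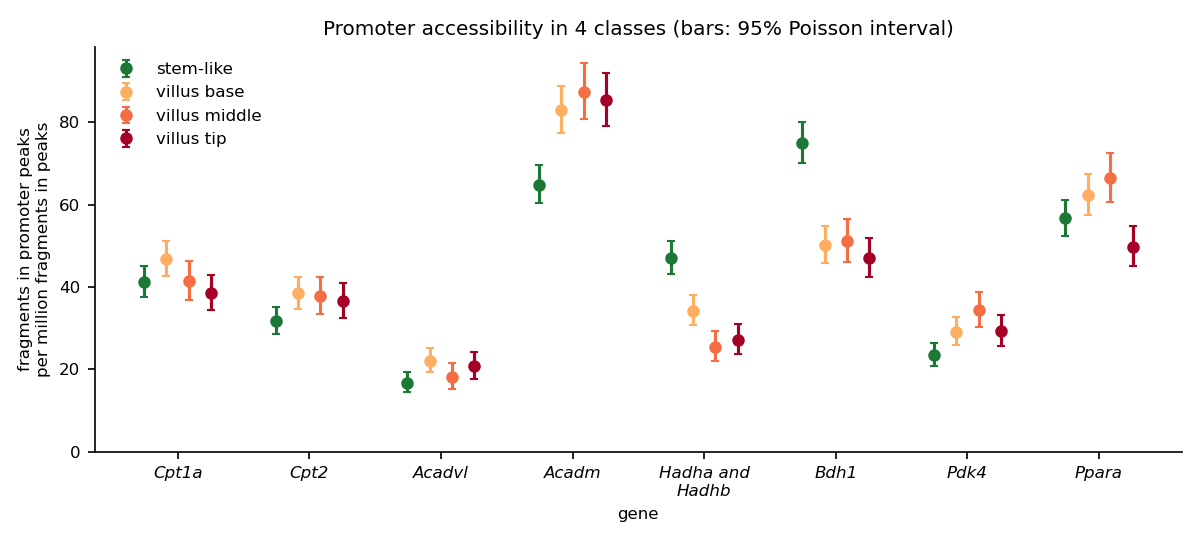
ATAC fragments in promoter peaks per 1000000 fragments in peaks (y axis, from 0) for each gene or shared promoter (x axis) in stem-like cells and the 3 villus heights, with 95% Poisson intervals. Bdh1 is at 75.1 in stem-like cells and 47.0 to 51.1 in the heights, the Hadha and Hadhb promoter is at 47.1 against 25.5 to 34.3, and the Cpt1a points lie between 38.5 and 46.8.

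Peaks outside the promoters were compared within 50000 bases of each start where stem-like and tip cells had at least 100 fragments together. Of all peaks with that many fragments, 36.6% were higher in stem-like cells and 27.9% lower. Near Cpt1a, 9 of 12 tested were higher and 1 lower. The widest was at chr19:3318319-3319145, centred 4553 bases upstream of the Cpt1a start and outside RefSeq genes, with 109 fragments in stem-like cells and 6 at the tip (12.6-fold, log2 3.66, interval 2.49 to 5.14). The closest annotated start to it is that of Gm50307, 738 bases away, so the peak cannot be assigned to Cpt1a from these data.

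Near Hadha and Hadhb, 2 of 7 peaks were higher and 2 lower. The peak at chr5:30173201-30173986, inside Hadhb, had 122 fragments in stem-like cells and 9 at the tip (log2 3.24), and that at chr5:30126528-30127388, inside Hadha, had 21 against 113 (log2 -2.95). Near Bdh1, 3 of 6 were higher and 1 lower, the widest at chr16:31402645-31403296 between genes (102 against 8 fragments, log2 3.15). Near Ppara, 5 of 17 were higher and 7 lower. A peak at chr15:85702315-85703191 between genes had 425 against 115 fragments (log2 1.36), and one at chr15:85704039-85704903, inside Lncppara, had 50 against 183 (log2 -2.40).

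The only tested peak near Pdk4, at chr6:5509440-5510334 and 13131 bases from the Pdk4 start, was higher in stem-like cells (333 against 82 fragments, 2.82-fold), the opposite direction to the RNA. Near Acadvl 1 of 13 peaks was higher, chr11:69970173-69970892 inside Elp5 (231 against 54, log2 1.57). None of the 5 tested near Cpt2 and not the 1 tested near Acadm was called.

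The wider pathway, 117 other genes in 7 lists, was compared in the same way. Of the 106 with enough UMIs, 26 were called higher and 40 lower in stem-like cells than in all enterocyte-like cells (41.6% and 22.2% of all genes), and 62 and 22 on the all-UMI scale (73.3% and 8.62%). In peroxisomal oxidation 0 of 17 were higher and 14 lower (median log2 -1.39), against 2 higher and 8 lower on the all-UMI scale. Eci3 (7 against 203 UMIs) and Acaa1b (6 against 114 UMIs) had log2 ratios of -4.05 and -3.44. Both stayed negative on both other scales.

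The 20 other mitochondrial oxidation genes were mixed, with 5 higher and 4 lower and a median of 0.11 (15 higher and 1 lower on the all-UMI scale). Pcca (486 against 116 UMIs, log2 2.88) and Acadsb (131 against 38, log2 2.60), which handle propionyl-CoA and short branched chains, were the highest in stem-like cells. Acad11 (-2.42) and Hadh (-1.06), the short-chain hydroxyacyl-CoA dehydrogenase, were the lowest, and Hadh turned to 0.08 on the all-UMI scale. In fatty acid activation and the carnitine shuttle, 4 of 12 were higher and 6 lower. Slc27a4 (59 against 1851 UMIs, log2 -4.16) and Acsl5 (217 against 2591, log2 -2.77), which take up and activate long-chain fatty acids, were lower in stem-like cells, and the acetate-activating enzymes Acss1 (1.70) and Acss2 (1.57) were higher.

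Of PPARA targets outside oxidation, 2 of 16 were higher and 8 lower, with a median of -2.10 (6 and 8 on the all-UMI scale). Creb3l3 (42 against 1774 UMIs, log2 -4.59) and the fatty acid transporter gene Cd36 (12 against 448, log2 -4.41) were the lowest. Fads2, a fatty acid desaturase (461 against 82 UMIs, log2 3.30), and Acot1 (26 against 17 UMIs, log2 1.42) were higher in stem-like cells. Their medians and counts describe lists and were not tested against other lists.

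**Figure D5:**
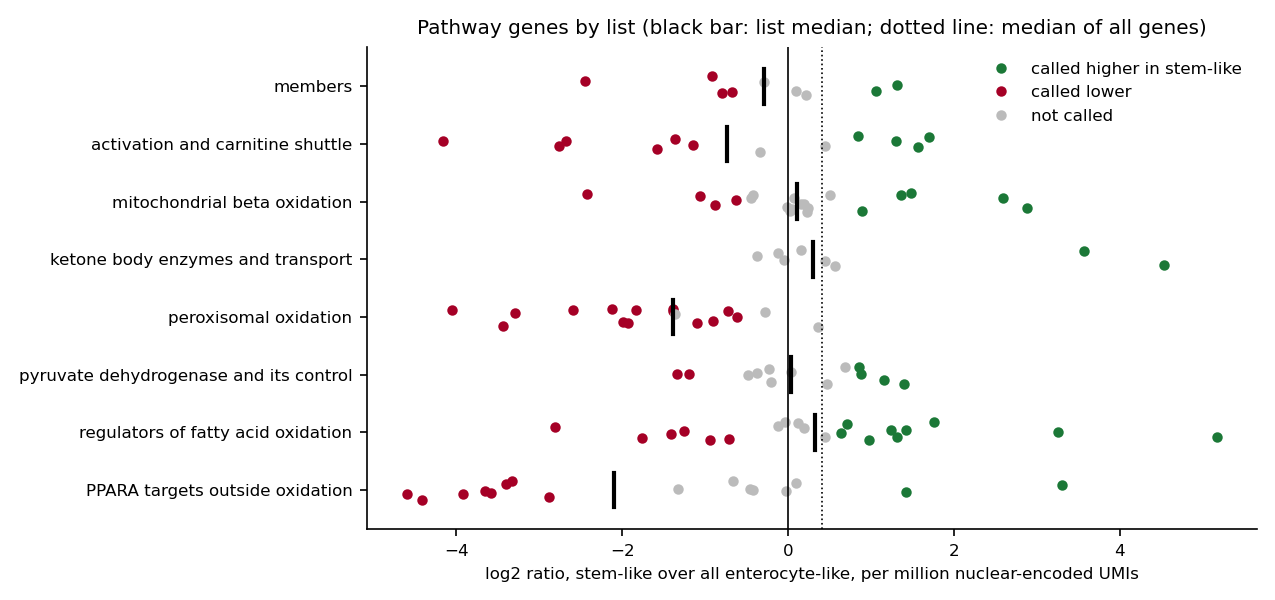
Log2 ratio of RNA level in stem-like over all enterocyte-like cells (x axis, nuclear scale) for each tested gene of the 9 members and of 7 pathway lists (y axis). Black bars are list medians and the dotted line is the median of all genes at 0.40; the peroxisomal list has its median at -1.39 with no gene called higher, and the list of mitochondrial oxidation has its median at 0.11.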

How the data were processed

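RNA and open chromatin of the same cells were measured in 1 sample (1 RNA and 1 ATAC library). The deposited matrix holds whole-number counts: UMIs per gene (71697164 in all) and counts per peak (197564789 in all, 87.6% of the values even), made with Cell Ranger ARC 2.0.2 on mm10, per the file header and the submitters' processing notes; the gene annotation and the cell filter are not given in the sources used here. Peaks and start sites are the authors' deposited coordinates. Per the labels' protocols the cells were fixed with formaldehyde and the libraries enriched for mitochondrial DNA.

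Cells with at least 500 UMIs, 300 genes and 1000 peak counts were kept (9872 of 12363). Scanpy 1.11.5 and leidenalg 0.10.2 clustered them on 1500 variable genes, 30 components and 15 neighbours at resolution 1, without 37 mitochondrial genes and 126 member and pathway genes. A cluster was named when its median log2 marker ratio was at least 0.4 and exceeded that of the next lineage by 0.4 (stem-like and cycling-like did not block each other). 2108 cells (21.4%) stayed unnamed. Scrublet marked 0 cells and so did not work as a filter; doublets were instead treated by leaving out the highest 8% of scores as an alternative. Barcodes come from 1 library, so none are shared between libraries. Villus position was the score of base and tip landmark genes, averaged over 15 neighbours.

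UMIs were summed per class, levels given exact Poisson intervals and ratios exact Clopper-Pearson intervals (scipy 1.17.1). Fragments were peak counts halved and rounded up. The ratio and call functions were tested on simulated data. The members, gene lists, marker lists and tests were chosen with earlier results of these data known. Named pathway genes are the 2 highest and 2 lowest called genes of each list, plus Ppard, Ppargc1a, Acsl5 and Oxct1; some genes these rules name are not reported here; Decr1, Acaa2 and Acsl3 in the comparison of tip with base, and the cluster led by Gsdmc2 and Car4, were picked after their values were seen. Alternatives changed the scale, UMI minimum, fold, cells kept, clustering, villus division and promoter definition.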

Additional observations from a re-analysis of the deposited data

How the results depend on the processing

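Of 172 values recomputed under other settings, 141 stayed within 1.5 times the main count and 31 moved. Counts below are of the 9 genes unless stated. The share of all genes called was computed for changes of scale and not for the other settings. Counts under those other settings have no background beside them and do not show a change particular to the 9 genes. On the all-UMI scale, those higher in stem-like cells numbered 4 (base), 8 (middle) and 7 (tip), those lower 1, 1 and 0, and the other pathway genes 62 higher and 22 lower. With median-of-ratios factors 1 was higher than in the middle, 3 were lower than at the tip and 3 were lower at the tip than at the base. Without cells above 80% mitochondrial UMIs, 0 were lower than at the tip. With cells thinned to 500 nuclear-encoded UMIs, 2 were lower than at the base, 0 lower than at the tip and 2 lower at the tip than at the base. With clusters from ATAC peaks, 1 was higher than in the middle and 2 lower than at the tip. With cycling-like cells added, 1 was lower than in the middle, and without the distal cluster 2 were lower than at the tip. At 2-fold, 3 were lower than at the base, 1 higher and 1 lower than in the middle, and 3 lower at the tip than at the base. Whole clusters for villus height, added after the data were seen, gave 0 lower than at the tip and 8 lower at the tip than at the base. Adding the unnamed tip cluster, also added later, gave 2 lower than at the tip. Of promoters, fragments per cell gave 9 higher, median-of-ratios 0 higher and 3 lower, a looser fold limit 1 lower, and 1 fragment per cell and peak (added later) 1 higher. The causes of these moves were not tested. At resolution 0.5 no cluster was stem-like and a cluster of 1847 cells was named cycling-like, so that setting gave no value. Low counts, such as the 12 UMIs of Pdk4 in stem-like cells, widen the intervals. No paired analysis was possible because the libraries are 2 assays of the same cells.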

Other observations

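A further unnamed cluster of 400 cells was led by the villus tip genes Slc28a2, Nt5e and Ada and had 88.2% mitochondrial UMIs, above the 78.2% of the villus tip, with a median of 588 nuclear-encoded UMIs per cell. Acadm stood at 133 CPM there (36 UMIs, interval 93.2 to 184), Hadhb at 44.3 (12 UMIs, 22.9 to 77.4), Ppara at 33.3 (9 UMIs, 15.2 to 63.1) and Pdk4 at 3.69 (1 UMI). The villus tip had 82.1, 98.7, 55.0 and 17.9 CPM of the same genes. Hadhb in this cluster lay below its interval in the villus tip, 83.5 to 116, and the intervals of Acadm overlapped (68.3 to 97.9 in the villus tip). These cells were left out of the heights because no marker list named them.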
